A study of Mus musculus with 24 samples.

Results

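Gonadal fat of male mice lies along the epididymis, and 3 of the 6 gonadal pads of this series carried epididymal transcripts at high levels while the other 3 carried almost none. The series held 24 RNA-seq libraries, 2 from each of 12 white fat pads, taken from gonadal and inguinal fat of 6 mice. The gonadal pads were split by the level of Crisp1, a sperm-coating protein of the epididymis, after the 2 libraries of a pad were averaged. Pads above 100 FPKM (fragments per kilobase of gene length, scaled to the reads assigned to genes in a library) formed the group with epididymal transcripts, and pads below 10 FPKM the group without. The 3 pads with them came from mice M12, M6 and M10, and the 3 pads without them from M5, M9 and M7. M12, M5 and M9 carried an adipose knockout of FoxO1, and M6, M10 and M7 were control mice with the floxed FoxO1 gene. The group with epididymal transcripts therefore held 1 knockout and 2 control mice, and the group without them 2 knockout mice and 1 control. The Cre driver, the exons deleted, and the strain, sex and age of the mice were not stated in the labels.

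The epididymis is a long coiled duct in which sperm leaving the testis mature and are stored. Its epithelium secretes lipocalins that carry small lipophilic molecules, beta-defensins, protease inhibitors and proteins that coat the sperm surface. Successive segments of the duct are known to use different sets of these genes, and many of the genes depend on androgens or on factors that reach the duct from the testis. In a bulk library a lower level of such a transcript can come from fewer cells of a type or from less RNA in each cell, and these cannot be told apart.

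The upstream sequences of 4 genes are shown because the 4 stand for the patterns described below: Crisp1 was high in all 3 pads with epididymal transcripts, Lcn8 in M12, Lcn5 in M10, and Akr1b7 in M6 and M12. Each is the stretch of 250 bases before the gene's start in RefSeq (build GRCm38.p6), written 5′ to 3′ on the gene's own strand. Crisp1 is on the minus strand (chr17:40319208-40319457). Lcn8 (chr2:25652868-25653117), Lcn5 (chr2:25657702-25657951) and Akr1b7 (chr6:34412112-34412361) are on the plus strand. Capitals mark a TATA box (TATAAA on either strand, thus also TTTATA).
Crisp1: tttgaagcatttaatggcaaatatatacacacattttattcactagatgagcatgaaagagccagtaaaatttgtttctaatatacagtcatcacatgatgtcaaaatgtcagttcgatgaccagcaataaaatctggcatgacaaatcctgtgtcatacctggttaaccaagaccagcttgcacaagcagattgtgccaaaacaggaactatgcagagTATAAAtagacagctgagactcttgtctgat
Lcn8: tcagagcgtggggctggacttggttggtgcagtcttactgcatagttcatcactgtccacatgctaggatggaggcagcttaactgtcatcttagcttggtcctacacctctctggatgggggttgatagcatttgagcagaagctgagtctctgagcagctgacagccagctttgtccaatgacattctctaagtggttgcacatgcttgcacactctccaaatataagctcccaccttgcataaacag
Lcn5: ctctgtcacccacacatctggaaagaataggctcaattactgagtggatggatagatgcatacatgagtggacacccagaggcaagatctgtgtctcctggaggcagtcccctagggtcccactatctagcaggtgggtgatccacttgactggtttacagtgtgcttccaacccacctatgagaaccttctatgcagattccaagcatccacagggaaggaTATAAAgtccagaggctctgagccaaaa
Akr1b7: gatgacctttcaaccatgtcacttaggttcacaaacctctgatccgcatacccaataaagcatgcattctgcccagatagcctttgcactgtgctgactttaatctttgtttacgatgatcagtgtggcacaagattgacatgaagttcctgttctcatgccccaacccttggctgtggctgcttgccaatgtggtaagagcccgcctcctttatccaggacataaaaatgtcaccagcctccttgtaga
Crisp1 and Lcn5 held 1 TATA box each, starting 31 and 28 bases before the start, and Lcn8 and Akr1b7 held none. Among all 32851 windows of the same length, 12.4% held a TATA box. Of the 93 genes in the 5 epididymal lists described below, 64 were matched by symbol to 70 windows, of which 10 (14.3%) held one. These matches describe letters in a window and say nothing of binding.

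Foxo1, the targeted gene, followed the genotype labels in every pad. In the gonadal pads it stood at 4.01, 4.07 and 4.46 FPKM in the knockout mice M12, M5 and M9, against 13.6, 9.53 and 7.87 FPKM in the control mice M6, M10 and M7. In the inguinal pads it stood at 5.69, 4.12 and 2.49 FPKM in M12, M5 and M9, against 19.7, 14.5 and 13.0 FPKM in M6, M10 and M7. The genotypes did not overlap in either fat, and in gonadal fat the exact two-sided permutation test over mice gave p = 0.1, the smallest that 3 mice against 3 allow. The gonadal libraries held 17075037 to 25438811 reads assigned to genes. Each of the 24 libraries was closest to the other library of its own pad, so that mice, not libraries, were counted as replicates. Nothing in the labels says that the 2 libraries of a pad came from separate pieces of tissue. The p-values below rest on the spread between these 6 mice. Those of the gonadal against inguinal fits rest on the spread of the difference within a mouse.

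The level of Crisp1 that set the groups was 680 FPKM in the pad of M12, 442 in M6 and 705 in M10, against 0.102 FPKM in M5, 0.885 in M9 and 1.04 in M7. The pad nearest the limits from above was thus M6 at 442 FPKM, and the pad nearest from below was M7 at 1.04 FPKM. No pad lay between 10 and 100 FPKM. Crisp1 (ENSMUSG00000025431, mm10 chromosome 17, 40293758 to 40319207, minus strand) had 14372 to 20880 reads in each library of the pads with it. It had 2 to 32 reads in each library of the other gonadal pads and 0 to 4 in each of the 12 inguinal libraries.

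The other 3 markers did not share 1 pattern. Spink8 (ENSMUSG00000050074, mm10 chromosome 9, 109812280 to 109826633, plus strand), a Kazal-type protease inhibitor, followed Crisp1. It stood at 388 FPKM in M12, 224 in M6 and 892 in M10, against 0.348, 0.409 and 0.834 FPKM in M5, M9 and M7. Lcn5, an epididymal lipocalin that binds retinoic acid, stood at 22.9 FPKM in M12, 0.221 in M6 and 1493 in M10. It had 0 reads in all 6 libraries of M5, M9 and M7, which allows at most 0.0947 to 0.105 FPKM in a pad. Lcn8, another secreted lipocalin, was at 2737.5 FPKM in M12 and 0.559 FPKM in M10. It had 0 reads in M6, which allows at most 0.0990 FPKM, and 0 reads in the 3 pads without epididymal transcripts, which allows at most 0.101 to 0.113 FPKM. These limits are 3 reads over both libraries of a pad and cover counting error only. When the pads were split at the widest gap in another marker, Spink8 gave the same 3 against 3, Lcn5 set M10 alone apart from the other 5 pads, and Lcn8 set M12 alone apart.

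**Figure D1:**
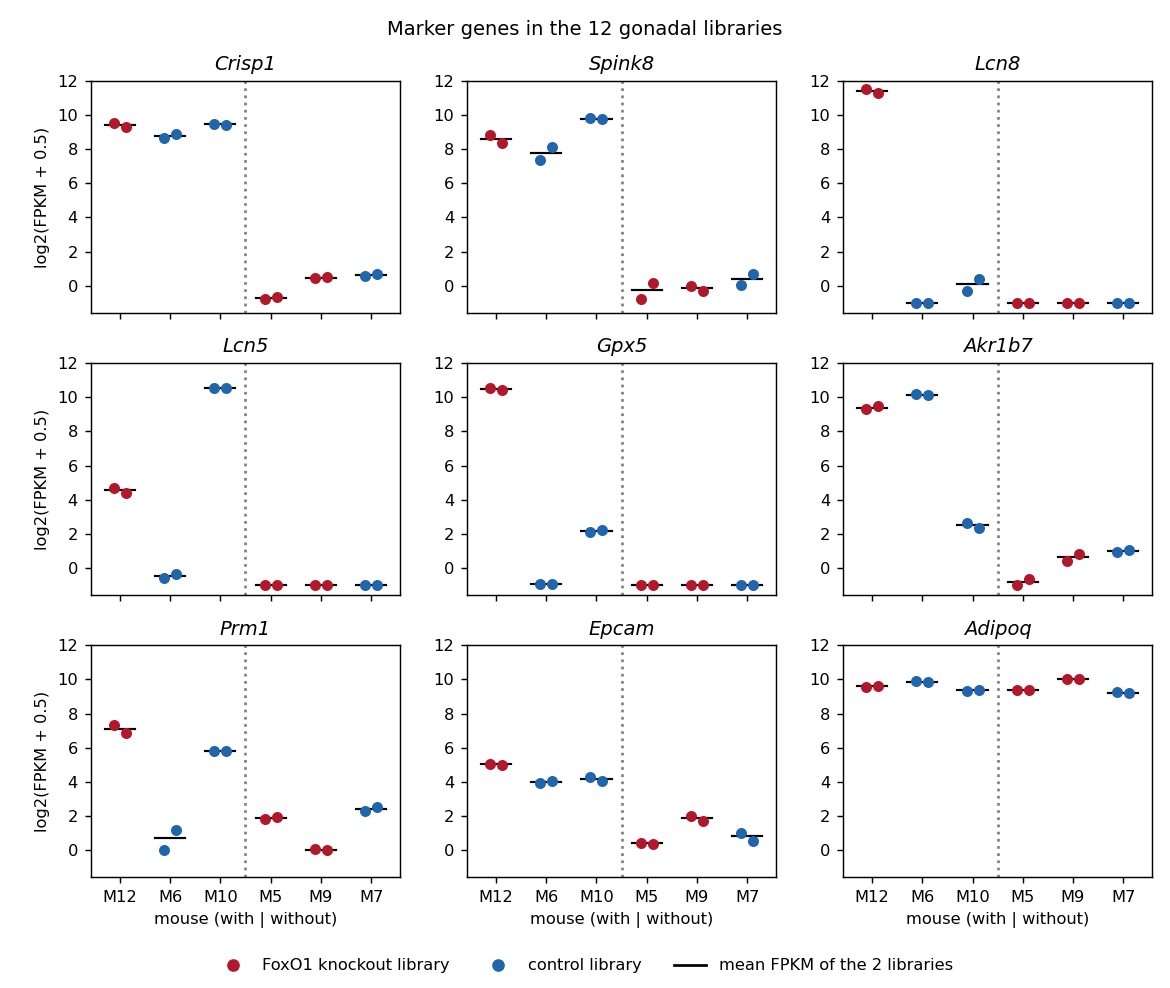
Levels of 9 genes in the 12 gonadal libraries, as log2(FPKM + 0.5) on the vertical axis and mice on the horizontal axis; red points are FoxO1 knockout libraries, blue points control libraries, and black bars the mean FPKM of the 2 libraries of a pad. Crisp1 and Spink8 are high in M12, M6 and M10, Lcn8 and Gpx5 in M12, Lcn5 in M10 and Akr1b7 in M12 and M6, while Adipoq lies between 601 and 1033 FPKM in all 6 pads.

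The epididymal genes were followed in 5 lists: lipocalins, sperm-coating and maturation proteins, protease inhibitors, the RNase A family and beta-defensins. Together the lists held 93 genes of the deposited table, of which 80 reached a mean of 0.5 FPKM over the gonadal pads. Of the 93 genes, 89 were highest in a pad with epididymal transcripts, as were 8565 of the 14851 genes with a mean of 0.5 FPKM or more, and 4 were listed at 0 in all 6 gonadal pads. In 26 of them the 3 pads with epididymal transcripts all lay above the 3 pads without, against a background of 13.4% of the 14851 genes that reached this mean. In 25 the difference of the means of log2(FPKM + 0.5) was also at least 4-fold, against a background of 0.855%. Crisp1 chose the groups, so these counts are a description. The 3 broadly used members, Clu, Npc2 and Wfdc2, were also found outside the pads with Crisp1. Of the other 90 members, 46 had 0 reads in all 6 libraries of the pads without epididymal transcripts, and the highest level any of the 90 reached there was 1.04 FPKM, for Crisp1 itself. In the inguinal pads 50 of the 90 had 0 reads in all 12 libraries, and the highest level was 2.18 FPKM, for Rnase10 in M6. The median difference over the 93 genes was 3.41 on the log2 scale, against 0.04 over the 14851 genes. With 40 members that had 0 reads in the pads without epididymal transcripts set at their lower bound (3 reads over the 6 libraries), it was 4.66.

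As a share of all reads, the 90 genes took 1.54% in the pad of M12, 0.0910% in M6 and 0.673% in M10. In the pads without epididymal transcripts the shares were 0.000391% in M5, 0.000567% in M9 and 0.000590% in M7. The pad of M6, although well above the Crisp1 limit, thus held a much smaller share than M12 and M10.

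The lipocalins divided between M12 and M10. The 6 genes Lcn12, Lcn8, Lcn5, Lcn6, Lcn10 and Lcn9 lie in this order within 335 kb of chromosome 2. Lcn9 stood at 1073 FPKM in M12 and was listed at 0 in M6 and M10. Lcn10 was at 266 FPKM in M12, listed at 0 in M6 and at 0.0227 FPKM in M10. Lcn6 was at 114 FPKM in M12, listed at 0 in M6 and at 0.317 FPKM in M10. Lcn8 and Lcn5, whose upstream sequences are printed above, are neighbours on the plus strand with 1.73 kb between them, and they were high in different pads, Lcn8 in M12 and Lcn5 in M10. Lcn12 differed little between those 2 pads, at 18.9 FPKM in M12 and 16.9 in M10, against 0.0549 FPKM in M6. In the pads without epididymal transcripts no lipocalin exceeded 0.119 FPKM.

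Sperm-coating and maturation proteins split in the same way. Gpx5 (ENSMUSG00000004344), a secreted glutathione peroxidase of the epididymis, was at 1456 FPKM in M12, 0.0259 in M6 and 3.95 in M10, with 0 reads in the 3 pads without epididymal transcripts. Spag11b and Spag11a, neighbours on chromosome 8 that encode defensin-like sperm-associated proteins, were high in different pads. Spag11b was at 429 FPKM in M12 and 0.197 FPKM in M10, and Spag11a at 22.6 FPKM in M12 and 185 FPKM in M10. Both were listed at 0 in M6 and in the 3 pads without epididymal transcripts. Adam7, a membrane protein that is passed from the epididymal epithelium to sperm, was at 358 FPKM in M12 and 150 in M10, against 0.0170 FPKM in M6. Adam28 reached 182 FPKM in M12 and did not exceed 0.0152 FPKM in M6 and M10. The carboxylesterase Ces5a was higher in M10, at 164 FPKM, than in M12, at 74.4 FPKM, and was at 0.773 FPKM in M6. Clu, which encodes the chaperone clusterin, was at 209, 377 and 675 FPKM in M12, M6 and M10, against 292, 226 and 327 FPKM in M5, M9 and M7, and these groups overlapped.

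Of the protease inhibitors, 3 cystatins were high in M12 and the Kunitz-type genes Spint4 and Spint5 in M10. Cst11, Cst12 and Cst8, inhibitors of cysteine proteases that lie within 37.0 kb of chromosome 2, stood at 629, 394 and 141 FPKM in M12. None of the 3 exceeded 0.196 FPKM in M6 or 2.001 FPKM in M10. Spint4 and Spint5, neighbouring Kunitz-type serine protease inhibitors, stood at 478 and 271 FPKM in M10, against 3.04 and 4.22 FPKM in M12 and at most 0.0316 FPKM in M6. They sit at the end of a run of 12 inhibitor genes over 504 kb of chromosome 2, and the other members of that run were present in both M12 and M10. Wfdc10, a whey acidic protein domain gene, was at 387 FPKM in M12, 4.88 in M6 and 311 in M10. Eppin, which coats sperm and binds semenogelin in humans, was at 44.8 FPKM in M12, listed at 0 in M6 and at 24.9 FPKM in M10. Wfdc15b was the member of the run that M6 also held: 92.3 FPKM in M12, 26.3 in M6 and 118 in M10, against 0.0406, 0.113 and 0.457 FPKM in M5, M9 and M7. Wfdc8 and Wfdc6b overlap by 105 bases, and Wfdc9 and Wfdc10 by 538 bases, on opposite strands. The labels do not state whether reads were counted by strand, and reads in those overlaps may be shared.

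The RNase A family on chromosome 14 divided between neighbours too. Rnase10, which in mice is needed for sperm to pass from the uterus into the oviduct, was at 412 FPKM in M12, 0.965 in M6 and 0.457 in M10. Rnase9, which lies 27.7 kb further on, was at 19.2 FPKM in M12, listed at 0 in M6 and at 320 FPKM in M10. Rnase12 was at 106 FPKM in M12, 1.32 in M6 and 146 in M10. Rnase13, the last gene of the group, reached 18.5 FPKM in M10 and at most 0.245 FPKM in the other 5 gonadal pads.

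Beta-defensins, small cationic peptides that include many sperm-coating proteins, were the largest list, with 43 genes in the table. On chromosome 14 all 5 reached at least 5 FPKM in a pad with epididymal transcripts, on chromosome 2 all 11, on chromosome 1 2 of 3 and on chromosome 8 10 of 24. The 5 genes on chromosome 14 lie within 80.6 kb and did not follow 1 pattern. Defb48 was at 1437 FPKM in M12, 0.851 in M6 and 2.34 in M10. Defb47 was at 307 FPKM in M12, 0.181 in M6 and 5.54 in M10. Defb30 was highest in M10, at 146 FPKM, against 4.93 FPKM in M12 and 2.36 FPKM in M6. Defb43 and Defb42 were alike in the 3 pads. Defb43 stood at 56.7, 46.4 and 50.8 FPKM in M12, M6 and M10, against 0.114, 0.108 and 0.121 FPKM in M5, M9 and M7. Defb42 stood at 93.4, 40.1 and 48.0 FPKM in M12, M6 and M10, against 0.133, 0.130 and 0.334 FPKM in M5, M9 and M7. Defb30 and Defb42 overlap by 2970 bases on opposite strands, with the same limit on their reads. Away from chromosome 14, Defb25 was at 1411 FPKM in M12 and at most 0.685 FPKM in M6 and M10. Defb39 was at 38.3 FPKM in M12, listed at 0 in M6 and at 303 FPKM in M10. Beta-defensin genes resemble each other, so reads may be split between close copies.

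**Figure D2:**
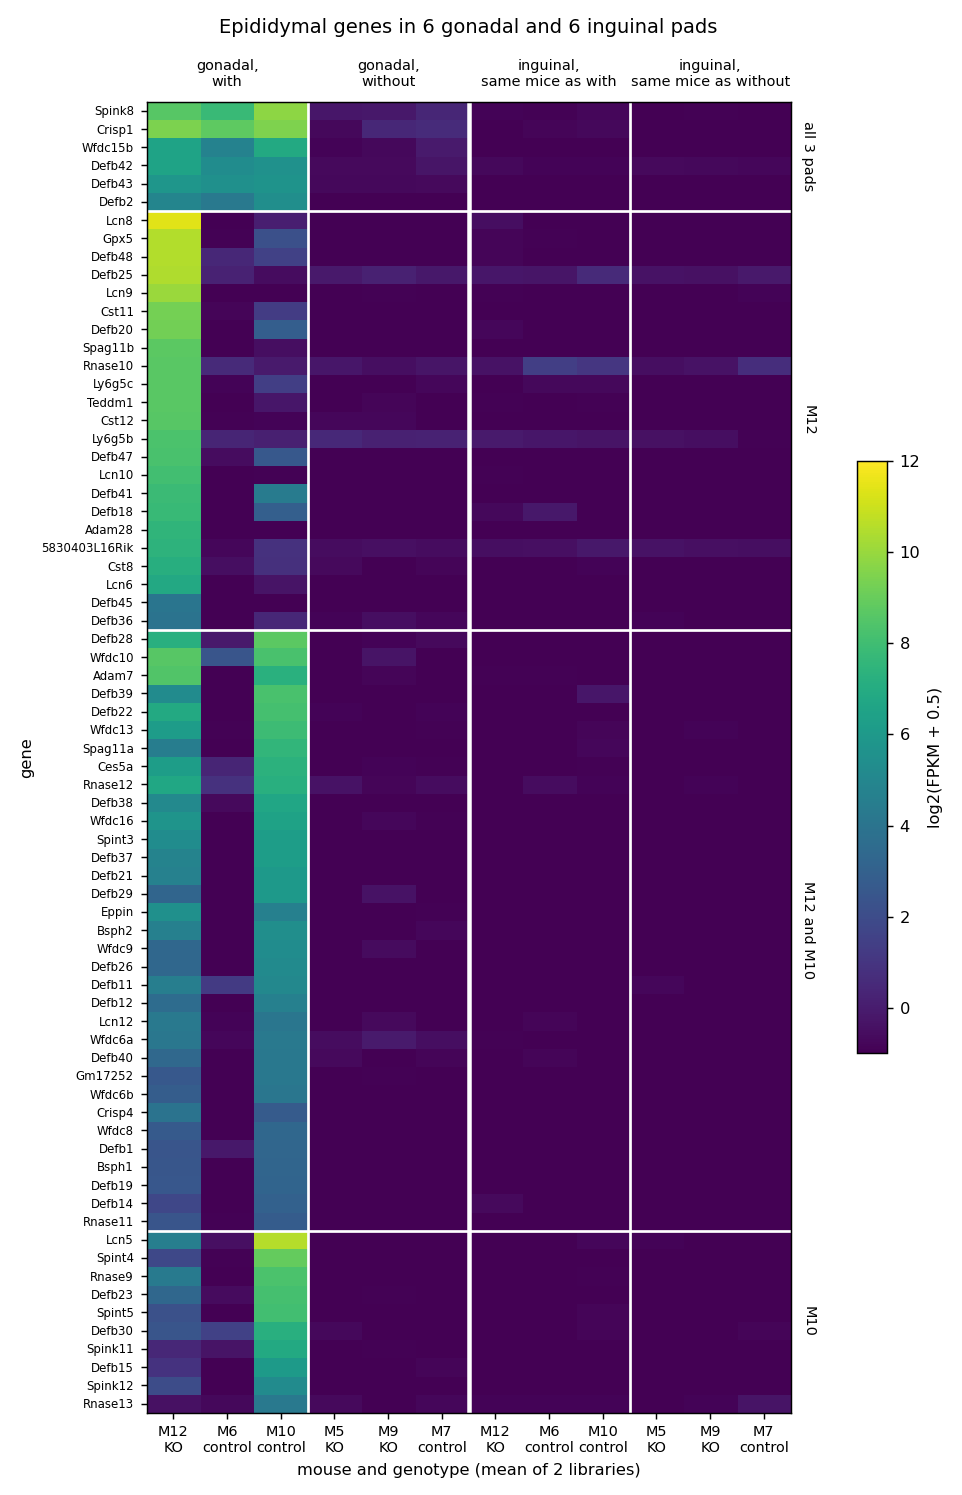
Heat map of 72 epididymal genes (rows) in 6 gonadal and 6 inguinal pads (columns, each the mean of 2 libraries), coloured by log2(FPKM + 0.5) and grouped by the pads in which a gene reached at least 10% of its highest level. Of the 72 genes, 6 are carried by all 3 pads, 23 by M12, 33 by M12 and M10 and 10 by M10, and the pads without epididymal transcripts and the inguinal pads stay dark.

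Over the 72 members that reached 5 FPKM in a pad with epididymal transcripts, leaving out Clu and Npc2, a pad was counted as carrying a gene at 10% or more of its highest level. M12 alone carried 23 genes, M10 alone 10, and M12 with M10 33. All 3 pads carried 6: Crisp1, Spink8, Wfdc15b, Defb42, Defb43 and Defb2. M6 carried no member that the other pads lacked. M10 held the highest level for 42 genes and M12 for 30. Across the 72 genes the Spearman correlation was -0.30 between M12 and M10, 0.26 between M12 and M6 and 0.20 between M6 and M10. The 72 genes were chosen by their highest level in these same 3 pads, which can itself lower a correlation, so no sign is read. Genes are not independent replicates, the pads come from 3 mice, and the values describe these 3 pads.

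**Figure D3:**
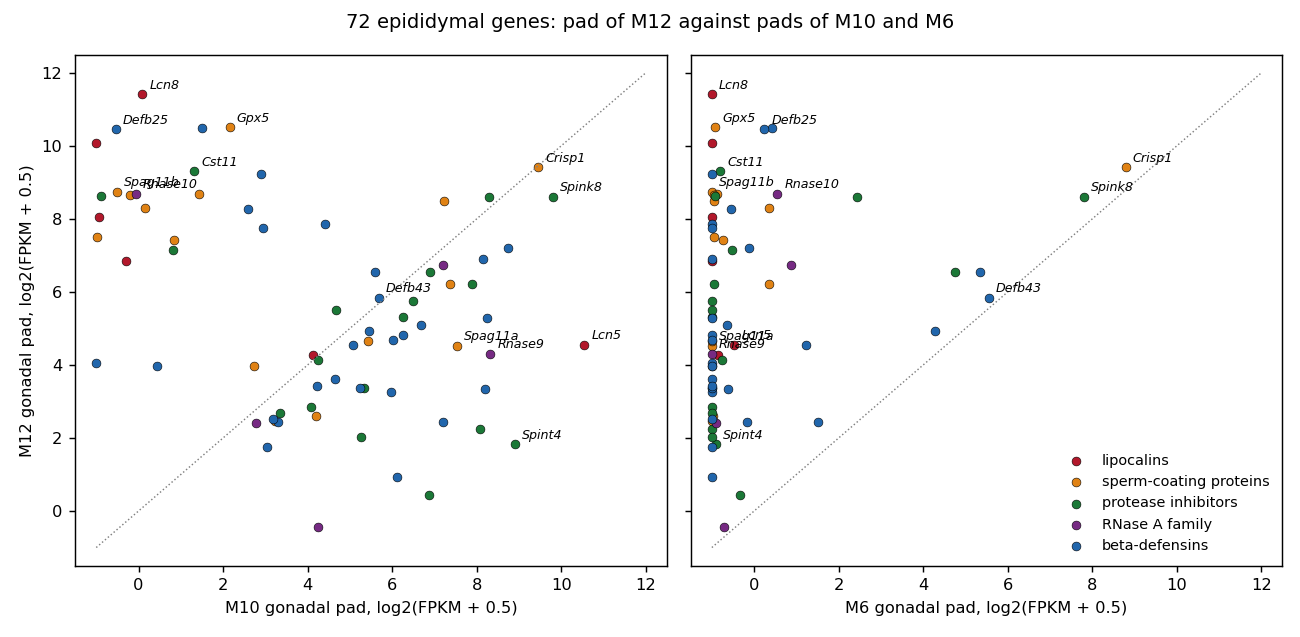
The 72 epididymal genes by their level in the gonadal pad of M12 (vertical) against M10 (left) and M6 (right), as log2(FPKM + 0.5); each point is a gene, coloured by family, and the dotted line marks equal levels. Lcn8 and Gpx5 lie far above the line and Lcn5, Spint4 and Rnase9 far below it on the left, and on the right most genes lie at the left edge, with Crisp1, Spink8 and Defb43 among those held by both pads.

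Akr1b7 was high in M6 and M12 and low in M10. This gene (ENSMUSG00000052131, mm10 chromosome 6, 34412334 to 34423142, plus strand), an aldo-keto reductase known as the major secreted protein of the mouse vas deferens, stood at 674 FPKM in M12, 1139 in M6 and 5.09 in M10. In M5, M9 and M7 it stood at 0.0724, 1.04 and 1.49 FPKM. Akr1b7 was thus highest in M6, which had the smallest share of epididymal reads among the 3 pads with epididymal transcripts. Several other genes had the same order, and they were picked out after their values were seen. Ptgs2, the inducible prostaglandin synthase, was at 44.7 FPKM in M12, 104 in M6 and 2.53 in M10, against 2.02, 2.21 and 3.75 FPKM in M5, M9 and M7. Cited1, a transcriptional co-activator, was at 19.4, 35.4 and 3.85 FPKM in M12, M6 and M10, against 0 to 0.121 FPKM in M5, M9 and M7. Crygc, a crystallin gene, was at 12.3 FPKM in M12 and 30.3 FPKM in M6 and was listed at 0 in M10. Of the 13 other genes listed for seminal vesicle, prostate and vas deferens, none reached 1 FPKM in any gonadal pad. The seminal vesicle gene Svs2 did not exceed 0.0146 FPKM, and Svs4 was listed at 0 in all 6 pads.

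Ranked by the difference of the means of log2(FPKM + 0.5), among named genes with no overlap between the groups, 20 of the 30 genes furthest higher belonged to the 5 epididymal lists, 10 of them beta-defensins. Crisp1 led at 9.10 and Spink8 followed at 8.72. Serpina1f, a serine protease inhibitor family member outside the lists, stood at 49.1, 74.4 and 78.1 FPKM in M12, M6 and M10, against 0, 0.0334 and 0.155 FPKM in M5, M9 and M7. The list also held Ceacam10, Gldc, Acbd7, Ly6f and the epididymal secretory protein gene Eddm3b. Counting by level instead, 50 genes (0.337% of 14851) reached 100 FPKM in a pad with epididymal transcripts and stayed under 1 FPKM in every pad without. They were 33 genes in M12, 1 in M6 and 23 in M10, and 40 of the 50 belonged to the lists. The remaining 10 had predicted or little-described names, apart from the trypsin-like Ovch2, at 119 FPKM in M12, and the colipase-like Clpsl2, at 186 FPKM in M12.

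**Figure D4:**
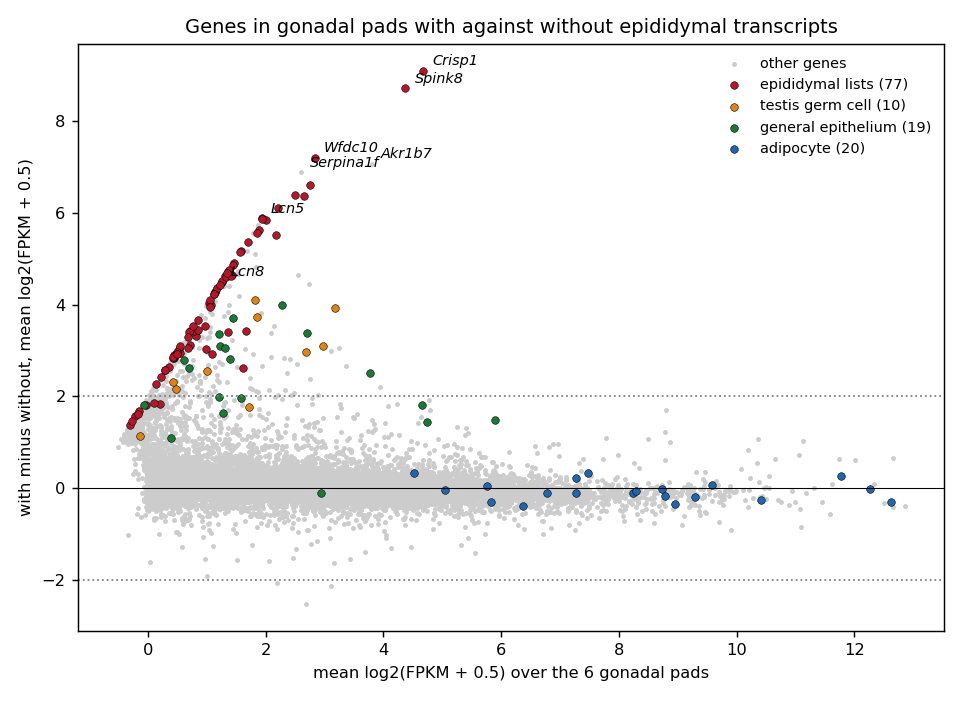
Each of 14851 genes by its mean level over the 6 gonadal pads (horizontal, log2(FPKM + 0.5)) and the difference between pads with and without epididymal transcripts (vertical, log2 scale); dotted lines mark 4-fold. Epididymal genes (red) run along the upper edge to Crisp1 at 9.10, epithelial (green) and germ cell genes (orange) lie above 0 with 1 exception, and adipocyte genes (blue) lie around 0.

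Most general epithelial genes were higher in all 3 pads with epididymal transcripts. Of 19 general epithelial genes, 17 had no overlap between the groups (background 13.4%), and 9 were also at least 4-fold higher (background 0.855%). Epcam, an epithelial adhesion molecule, was at 32.1, 15.4 and 17.4 FPKM in M12, M6 and M10, against 0.803, 3.12 and 1.25 FPKM in M5, M9 and M7. The tight junction gene Cldn7 was at 22.99, 17.0 and 16.8 FPKM, against 0.473, 1.34 and 0.496 FPKM. Krt8 was at 54.7, 38.2 and 40.2 FPKM, against 15.6, 12.4 and 20.1 FPKM. Krt7 and Prom2 did not separate the groups. Krt7 was at 7.30, 6.71 and 6.63 FPKM, against 6.88, 5.57 and 10.5 FPKM. Prom2, a membrane glycoprotein gene, was at 28.5, 0.479 and 32.5 FPKM, against 0.00967, 1.03 and 0.0463 FPKM. The summed list stood at 474, 263 and 323 FPKM in M12, M6 and M10, against 78.2, 82.8 and 93.2 FPKM in M5, M9 and M7.

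Of 16 genes of the duct's regulation and transport, 7 had no overlap between the groups (background 13.4%), and 4 of them were at least 4-fold higher (background 0.855%). Pax8 and Pax2, transcription factors of the genital ducts and kidney, were at 10.2, 4.22 and 4.80 FPKM and at 3.99, 2.17 and 3.85 FPKM in M12, M6 and M10. Neither exceeded 0.378 FPKM in M5, M9 or M7. Aqp9, a channel for water and glycerol, was at 11.4, 7.82 and 7.68 FPKM, against 1.74, 1.93 and 1.69 FPKM. Etv4 and Etv5, factors of the proximal duct in mice, were highest in M12, at 11.1 and 31.2 FPKM, while the other 5 pads held 1.14 to 1.86 FPKM of Etv4 and 5.58 to 8.31 FPKM of Etv5. Markers of the minor cell types of the duct were mostly low. Of 7 clear cell genes, 3 were higher without overlap between the groups, and of 5 basal cell genes 2 were (background 13.4%). At least 4-fold higher as well were 0 of the clear cell and 1 of the basal cell genes (background 0.855%). The clear cell factor Foxi1 was at 1.12 FPKM in M12 and 1.16 in M10, and did not exceed 0.0285 FPKM in the other 4 pads. The basal cell keratin gene Krt5 was at 4.21, 1.24 and 2.18 FPKM in M12, M6 and M10, against at most 0.0339 FPKM in M5, M9 and M7. Atp6v0d2, a proton pump subunit that macrophages also use, did not separate the groups, at 26.1 to 52.2 FPKM in pads with and 41.4 to 61.4 FPKM in pads without epididymal transcripts.

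Transcripts of late sperm development were high in M12 and M10 and not in M6. Prm1 and Prm2 encode the protamines that package sperm DNA. Prm1 was at 137 FPKM in M12, 1.11 in M6 and 56.0 in M10, against 3.12, 0.514 and 4.79 FPKM in M5, M9 and M7. Prm2 was at 162 FPKM in M12, 2.45 in M6 and 90.2 in M10, against 1.90, 0.763 and 3.53 FPKM. Tnp2, a transition protein gene, was at 155 FPKM in M12, 0.423 in M6 and 40.8 in M10, against 3.04, 0.589 and 2.67 FPKM. M6 therefore lay within the range of the pads without epididymal transcripts for Prm1 and below all 3 of them for Tnp2. Prm1, Prm2 and Tnp2 are neighbours on chromosome 16. All 12 germ cell genes were highest in a pad with epididymal transcripts, as were 8565 of the 14851 genes, and 3 had no overlap between the groups (background 13.4%). The summed list stood at 599.6, 8.49 and 282 FPKM in M12, M6 and M10, against 11.9, 3.57 and 14.8 FPKM in M5, M9 and M7. Markers of the testis itself were low. The Leydig cell gene Insl3 was at 2.13 to 3.51 FPKM in all 6 gonadal pads and 1.44 to 4.03 FPKM in the 6 inguinal pads. Hsd3b1 did not exceed 0.109 FPKM and the Sertoli cell gene Amh 0.187 FPKM. Cyp17a1, a steroid-making enzyme gene, was at 4.46 FPKM in M12 and 6.23 in M10, against at most 0.0620 FPKM in the other 4 gonadal pads.

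Smooth muscle genes divided between 2 patterns. Actg2, the actin of visceral smooth muscle, was at 224 FPKM in M12, 43.9 in M6 and 2.56 in M10, against 0.165, 0.544 and 3.74 FPKM in M5, M9 and M7. The groups overlapped because M7 lay above M10. Myh11 and Cnn1, contractile genes of smooth muscle, were highest in M6, at 34.5 and 29.2 FPKM. Myh11 was at 8.44 FPKM in M12 and 3.69 FPKM in M10, against 1.61 to 2.99 FPKM in M5, M9 and M7. The vascular actin gene Acta2 was at 43.2, 122 and 56.2 FPKM in M12, M6 and M10, against 39.0, 29.3 and 62.0 FPKM. Of the 10 smooth muscle genes, 2 had no overlap between the groups, a share near the background of 13.4%, and 1 was also at least 4-fold higher (background 0.855%). The median difference of the list was 0.82, against 0.04 over all genes.

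The genes of the fat pad itself did not separate the groups. Adipoq, the adiponectin gene, averaged 794 ± 141 FPKM in pads with and 767 ± 233 FPKM in pads without epididymal transcripts (SD, n = 3 each). Of 20 adipocyte genes none had a group wholly above or below the other, and the list's median difference was -0.08. The 11 mesothelial genes, 10 endothelial genes and 16 macrophage genes also overlapped without exception, with median differences of -0.13, 0.25 and -0.22. The medians of the adipocyte, mesothelial and macrophage lists lie below the 0.04 of all genes. Median-of-ratios scaling moved them to -0.15, -0.20 and -0.29, and that of all genes to -0.03. Red blood cell genes differed by a median of 1.08 with no gene free of overlap, and their summed level was 3231, 13645 and 6038 FPKM in M12, M6 and M10, against 1623, 4201 and 4246 FPKM in M5, M9 and M7. The part of blood in any difference was not tested.

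Few genes were lower in the pads with epididymal transcripts. A group wholly below the other was found for 664 genes (4.47%), and only 2 of them (0.0135%) were at least 4-fold lower. Both were immunoglobulin heavy chain segments, Ighv5-6 and Ighv3-1. Of the 10 named genes furthest lower, 6 were immunoglobulin segments, which differ between animals with their B cell clones. The others were the acute phase genes Saa1 and Saa2, the cytokine gene Il6 and the granule protease gene Ctsg, all low. Saa1 was at 0.124, 0.652 and 0.726 FPKM in M12, M6 and M10, against 1.82, 1.75 and 1.97 FPKM in M5, M9 and M7. Il6 was at 0.370, 1.16 and 1.80 FPKM, against 1.88, 2.31 and 3.31 FPKM.

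**Figure D5:**
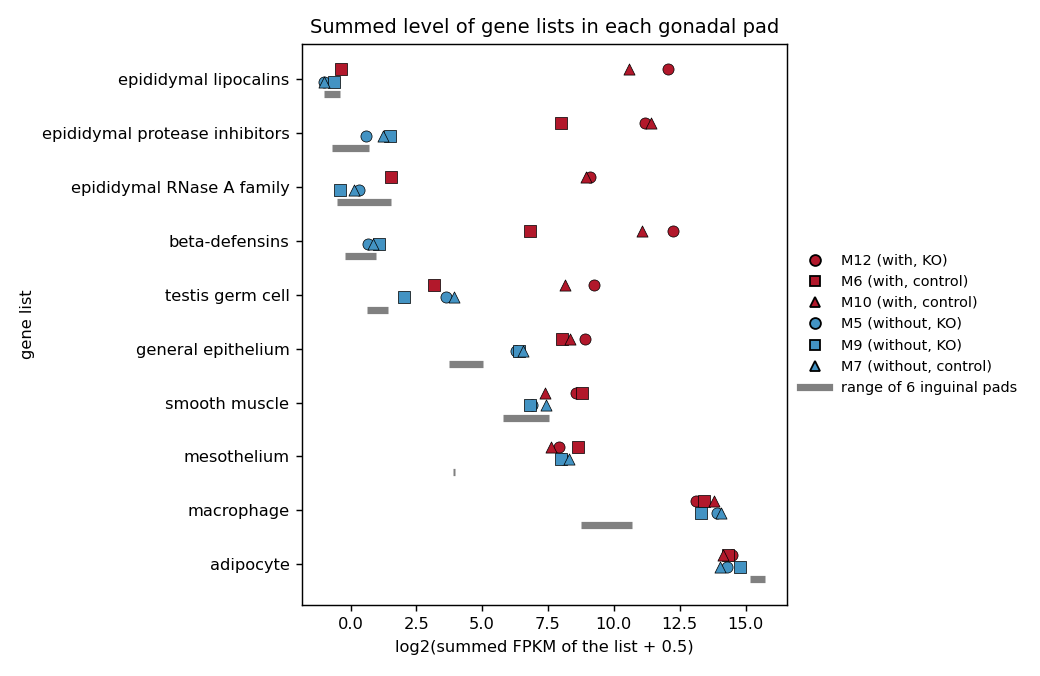
Summed FPKM of 10 gene lists in each gonadal pad, as log2(sum + 0.5) on the horizontal axis; red symbols are pads with and blue symbols pads without epididymal transcripts, and grey bars span the 6 inguinal pads. Epididymal and germ cell lists spread widely among the red symbols, with M6 lowest in each, general epithelium separates the groups, and mesothelium, macrophage and adipocyte lists overlap.

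The 2 libraries of a pad differed somewhat in their epididymal levels. Among epididymal genes of at least 5 FPKM, the second library over the first had a median log2 ratio of -0.11 in M12 (higher in 15 of 62 genes, range -0.74 to 0.41) and -0.02 in M10 (higher in 25 of 53 genes). In M6 the median was 0.44, and all 6 genes were higher in the second library. Spink8 was at 163 FPKM in the first and 284 FPKM in the second library of M6, and at 450.4 and 326 FPKM in those of M12. The 20 adipocyte genes had a median log2 ratio of 0.01 in the same pair of libraries. As a share of reads, the epididymal genes took 0.0801% in the first and 0.104% in the second library of M6.

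The inguinal pads of the same mice were compared to see whether the mice differed in a pad the groups were not chosen on. No gene of 13621 passed (limma, Benjamini-Hochberg adjusted p under 0.05; background 0% in each direction), while 3330 had an unadjusted p under 0.05. edgeR's quasi-likelihood test on rebuilt read counts called 0 of 15856, with 2809 under an unadjusted 0.05. Of the 93 epididymal members only Clu, Npc2 and Rnase10 reached a mean of 0.5 FPKM in the inguinal pads, with differences of 1.57 (SE 0.63), -0.12 (SE 0.09) and 0.76 (SE 0.55) and limma adjusted p of 0.192, 0.455 and 0.422. The genes with the smallest p were Marco, a scavenger receptor of macrophages, and the receptor segments Ighd3-2 and Trbj2-6, with differences of 3.89, 3.97 and 2.95 and a limma adjusted p of 0.0540 each. In the inguinal pads 10 B cell genes differed by a median of 3.35 and 9 T and NK cell genes by 2.68, against 0.14 over all genes tested, and none passed. Red blood cell genes (7) differed by a median of 1.30 and skeletal muscle genes (9) by -1.67, and none of these passed either. Their part in the result was not tested. Without M5 the test called 1471 genes, 1464 of them higher in the mice with epididymal transcripts in the gonadal pad.

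The epididymal transcripts crossed the comparison the study was made for, FoxO1 knockout against control in gonadal fat. No gene of 14851 passed there (limma adjusted p under 0.05; background 0% in each direction), 1291 had an unadjusted p under 0.05, and edgeR called 0 of 16799, with 1396 under an unadjusted 0.05. Foxo1, the targeted gene, was among the genes not called. Its genotypes did not overlap and differed by -1.18 on the log2 scale. The 0 calls therefore do not show that the knockout changed no gene. Crisp1 averaged 227 ± 392 FPKM in the 3 knockout pads, against 383 ± 356 FPKM in the 3 control pads (SD), a difference of -3.24 on the log2 scale (SE 3.50). Because Crisp1 in these pads set the groups, its test by genotype is not read. Spink8 averaged 130 ± 224 and 372 ± 464 FPKM in knockout and control pads, a difference of -3.27 (SE 3.35, limma adjusted p = 0.846). Lcn5 differed by -2.17 (SE 3.43, limma adjusted p = 0.919) and Lcn8 by 3.78 (SE 3.40, limma adjusted p = 0.821). Exact two-sided permutation tests over the 6 mice gave p = 0.5, 0.7 and 1 for Spink8, Lcn5 and Lcn8. The opposite signs of Lcn5 and Lcn8 rest on 1 pad each, M10 among the controls and M12 among the knockouts.

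Of the 80 epididymal members tested by genotype, 31 were higher and 49 lower in knockout pads, and 0 passed. Most of them reached the mean of 0.5 FPKM through M12, M6 or M10 alone. Their signs thus follow which of these pads held a gene, and nothing is read from the split. The median SE of the 80 members was 2.41 on the log2 scale, against 0.14 over all genes tested. Epididymal genes filled much of the list of large genotype differences. At least 4-fold apart were 28 genes higher (0.189%) and 25 lower (0.168%) in knockout pads, none of which passed. Of these, 17 of the higher and 8 of the lower genes belonged to the 5 epididymal lists. With the Crisp1 group of the pad as a covariate, the differences of Crisp1 and Spink8 were set by the split itself and are not read. Lcn8 differed by 5.94 (SE 2.66, limma adjusted p = 0.426) in that fit. Another fit used the level of the epididymal lists as the covariate instead. That level includes the 4 markers themselves, so their differences in this fit are not read either. In the fit with the Crisp1 group 0 genes passed (background 0% in each direction), and 1845 had an unadjusted p under 0.05. The fit with the list level also called 0 genes, with 1395 under an unadjusted 0.05.

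The authors' deposited gonadal table lists 990 genes as higher and 818 as lower in knockout mice. It includes 11.6% of the 14851 genes described here, but 0 of the 127 genes at least 4-fold higher in pads with epididymal transcripts. Of the 93 epididymal members the authors' deposited table lists 1, Clu, with a log2 fold change of -0.77.

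Against the inguinal pads of the same mice, all 6 gonadal pads had 6687 genes higher (45.9% of 14577) and 2861 lower (19.6%) by limma with the mouse as a block. Under median-of-ratios scaling the split was 4468 higher and 4456 lower, and the median difference over all genes moved to 0.01, against 0.23 as deposited. Of the 93 epididymal members, 76 were tested and 6 passed. Most of the 76 reached the mean of 0.5 FPKM through the gonadal pads alone, which fixes a positive sign, so nothing is read from their direction or from the count that passed. The 6 that passed were Clu and the genes held by all 3 pads with epididymal transcripts other than Defb2. Apart from Clu, those genes reached that mean through the gonadal pads alone, and their calls are not read. The same holds for the 4 markers, and Crisp1 also set the pad groups, so only the differences of the markers are given. Crisp1 differed by 5.59 (SE 1.69), Spink8 by 5.29 (SE 1.63), Lcn5 by 2.88 (SE 1.61) and Lcn8 by 2.17 (SE 1.65). The calls of Crisp1 and Spink8 were also lost when M12, M6 or M10 was left out.

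The pads without epididymal transcripts were then set against the inguinal pads of M5, M9 and M7, which shows what gonadal fat held when Crisp1 was near 0. In this fit 6411 genes were higher (45.8% of 13995) and 2527 lower (18.1%). Krt8 was at 15.6, 12.4 and 20.1 FPKM in the gonadal pads of M5, M9 and M7, against 1.46, 0.703 and 0.235 FPKM in their inguinal pads, a difference of 3.76 (SE 0.37, limma adjusted p = 0.00191). Mal2, a transport protein of epithelial cells, was at 0.701, 1.22 and 0.757 FPKM, against 3.89, 6.45 and 4.62 FPKM, and fell by 1.97 (SE 0.10, limma adjusted p = 0.000535). Krt8 and Mal2 thus differed in opposite directions, but Mal2 was the only epithelial list member called lower. Of 8 general epithelial genes tested here, 6 were called higher (background 45.8%) and 1 lower (background 18.1%). Some may have reached the mean of 0.5 FPKM through the gonadal pads alone, so nothing is read from this count. Mesothelial genes, a cell type that also makes Krt8, were higher in 10 of 11 cases (background 45.8%). Only 4 of the 11 reached a mean of 0.5 FPKM over the inguinal pads of all mice, so nothing is read from this count either. The part of mesothelial cells in the difference of Krt8 was not tested. The protamine genes reached the mean of 0.5 FPKM only through the gonadal pads, so their values are given without a test. Prm1 was at 3.12, 0.514 and 4.79 FPKM in the gonadal pads of M5, M9 and M7, against at most 0.0571 FPKM in their inguinal pads. Prm2 was at 1.90, 0.763 and 3.53 FPKM and was listed at 0 in those inguinal pads. Of the 93 epididymal members, Clu and Npc2 alone were abundant enough to test here.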

How the data were processed

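RNA from the gonadal and inguinal pads was sequenced after RNeasy extraction and NEBNext library preparation, per the labels' protocols. CASAVA, STAR and mm10 appear without versions in the submitters' processing notes. How reads were counted, and whether by strand, is not stated there. The authors deposited FPKM for 35275 genes in 24 libraries, and tables of the genes they called, with log2 fold changes, p-values, read counts and a size-factor-scaled signal per the file headers; of these tables only the authors' log2 fold change in gonadal fat is printed, and their read counts served to find each library's total. The table's names gave genotype, pad and animal number; the labels' replicate numbers are absent from them, so libraries were mapped to groups, not to single labelled samples. Another 24 columns of FPKM in the tables of called genes were not used. The deposited FPKM, times length and library total, came out as whole reads in 100% of values (tolerance 0.001), so rebuilt counts could be tested as an alternative.

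FPKM was averaged over both libraries of a pad, and each mouse counted once. Because the groups with and without epididymal transcripts were set by Crisp1 in the same pads, that contrast was described without a test, as differences of mean log2(FPKM + 0.5) and overlap of pads, at a mean of at least 0.5 FPKM. Other comparisons used the two-sided moderated test of limma 3.58.1 (R 4.3.3), with a trend, on the same scale, with Benjamini-Hochberg adjustment over all genes and a threshold of 0.05; the gonadal against inguinal fit had the mouse as a block, since both pads carry its number. Fold changes on this scale understate changes of low genes. The fit was tested on simulated data with known changes. Exact permutation tests used scipy 1.17.1, and edgeR 4.0.16 (quasi-likelihood) was run on read counts added up over both libraries. The precision follows from 3 mice a group and from 14953657 to 25438811 reads a library.

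All 29 gene lists (387 genes, all found) and the marker genes were chosen with earlier results of these data known. Named genes were the 4 markers, Foxo1, the 30 furthest higher and 10 furthest lower genes without overlap (1 FPKM or more on average in either group, leaving out predicted models and pseudogenes), up to 6 members of each list by mean level, and the 3 smallest p where nothing passed. Other members given by pad, Ptgs2, Crygc and the genes that mark a pattern were named after their values were seen. In the gonadal against inguinal fit only list members are named. Alternatives changed the pseudocount, filter, scaling, libraries, covariates and test, and left out each mouse.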

Additional observations from a re-analysis of the deposited data

How the results depend on the processing

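The count of genes at least 4-fold apart without overlap, 129 in all, moved to 215 with a pseudocount of 0.1 and to 84 with 1, to 66 at 8-fold and to 336 at 2-fold, and to 441 when Lcn8 set the groups, which leaves M12 alone against 5 pads; leaving out 1 mouse gave 106 to 424, the last without M6. The inguinal comparison, with 0 calls, gave 3 with a pseudocount of 0.1, 4216 with each library as a replicate and 0 to 1471 with a mouse left out (1471 without M5, 1 without M10). The knockout comparison in gonadal fat, with 0 calls, gave 1125 with each library as a replicate (569 higher, 556 lower) and 0 to 1 with a mouse left out. In that comparison the difference of Lcn5 reversed to 1.59 without M10, within a range of -4.19 to 1.59, and leaving out a mouse gave -6.42 to -1.35 for Crisp1, -6.20 to -1.37 for Spink8 and 3.60 to 5.85 for Lcn8. No paired analysis was possible for the knockout comparison because the library names carry animal numbers that the genotypes do not share. The gonadal against inguinal fit called 9548 genes with the replicate block and 9217 with no replicate block, 8318 to 9392 with a mouse left out. For single genes, 424 of the values under alternatives kept direction and side, 22 moved by more than the spread between pads, 6 lost and 3 gained a call, and the cause was not tested. With 3 mice a group, differences of the size of the spread among M12, M6 and M10 could not be called, and for Lcn5 and Lcn8 a level near 0.1 FPKM rests on about 3 reads in a pad.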

Other observations

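Genes of the major histocompatibility region on chromosome 17 set mice apart in both pads, and were picked out after their values were seen. H2-Eb1, which encodes a class II beta chain, stood at 8.35 FPKM in the gonadal pad of M12, against 279.8, 249.1, 127, 126 and 234 FPKM in M6, M10, M5, M9 and M7. In the inguinal pads it stood at 14.9 FPKM in M12, against 282.5, 350.5, 128, 54.3 and 155 FPKM in the same order. H2-T23, a non-classical class I gene, was at 3.33 FPKM in the gonadal and 5.10 FPKM in the inguinal pad of M12, against at least 37.3 FPKM in the other gonadal and 15.9 FPKM in the other inguinal pads. H2-Ea-ps, a pseudogene in this build, was listed at 0 in both pads of M10 and of M7 and was between 0.980 and 23.1 FPKM in every pad of M12, M6, M5 and M9. H2-Eb1 and H2-T23 were lower in the 3 knockout mice than in the 3 controls in both pads, without overlap, with M12 lowest. Because these 2 genes were picked by their values, this is a description and nothing is read from it. In gonadal fat H2-Eb1 differed by -2.28 on the log2 scale between knockout and control pads (limma adjusted p = 0.618) and H2-T23 by -2.23 (limma adjusted p = 0.591), and neither passed.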
